A study of Homo sapiens with 2 samples.

Results

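The genes described here encode Wnt receptors, the beta-catenin destruction complex, a feedback inhibitor and the TCF and LEF transcription factors: LRP5, LRP6, AXIN1, AXIN2, APC, GSK3B, NKD1, TCF7, TCF7L2 and LEF1. They were taken by symbol from the table of gene counts, where all 10 were found among 39720 symbols, and they were listed because DEPDC1B has been linked to Wnt signalling in lung cancer. The choice was made with earlier results of these data known. RNA was sequenced from A549, a human lung adenocarcinoma cell line. A lentivirus carried either a control hairpin (shNC) or a hairpin directed at DEPDC1B (shDEPDC1B), infection was in 5 µg/mL polybrene in both groups, and cells were collected on day 2. Each group is 1 library. The hairpin sequences, their number and any selection of infected cells were not given in the sources used here. With 1 library per group no test could be made, and every interval in square brackets is an exact 95% interval of counting error, which holds no spread between cultures or library preparations.

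Wnt ligands bind a Frizzled receptor together with the co-receptor LRP5 or LRP6. Without a ligand, a complex built on the scaffolds axin and APC holds beta-catenin while the kinases CK1 and GSK3 mark it for degradation. Ligand binding recruits axin to the co-receptor, beta-catenin then accumulates, enters the nucleus and acts through TCF and LEF factors on target genes, among which AXIN2 and NKD1 are feedback inhibitors.

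DEPDC1B, the gene the hairpin was made against, had 329 counts with shNC against 39 with shDEPDC1B, a log2 ratio of -3.00 [-3.51, -2.52]. The libraries held 18647290 and 18862371 counts. Of the A549 and epithelial markers, KRT8 and KRT18 were among the abundant genes (5498 and 5144 CPM, counts scaled to a common library size, in shNC, and 5674 and 5350 CPM in shDEPDC1B), whereas the lung lineage genes NKX2-1 and SFTPC had at most 2 counts. Of the markers of other cell types, 2 of 8 leukocyte (CD14 and CD68), 2 of 8 fibroblast (COL1A1 and COL3A1) and 1 of 8 endothelial genes (EGFL7) reached 30 counts. Of these, CD14 and EGFL7 were higher in shDEPDC1B by more than 1.5-fold, at log2 ratios of 0.79 and 0.99. Their summed levels were 42.0 and 37.7 CPM for leukocyte, 11.6 and 12.7 CPM for fibroblast and 16.6 and 30.4 CPM for endothelial markers in shNC and shDEPDC1B, and the defining genes PTPRC, DCN and KDR had at most 2 counts.

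Upstream sequence from RefSeq (GRCh38.p14) was matched for 7 of the 10 genes, in 11 windows of the 250 bases before an annotated start. No sequence was matched for AXIN2, LRP6 and NKD1. TCF and LEF proteins bind DNA at a short word, searched here on both strands as CTTTG followed by AA, AT, TA or TT. Such words on the same strand cannot overlap. Of all 35116 such windows 12% held at least 1 of these words, and of the 11 windows 2 did. These 2 lie before internal starts of the genes for TCF factors themselves, and they are printed because TCF7 had the lowest ratio of the genes below. The TCF7 window is chr5:134123368-134123617 on the plus strand, where the word stands in its reverse form, its first base 50 bases before the start. The TCF7L2 window is chr10:113126383-113126632 on the plus strand, with the word 133 bases before the start. For comparison, the window before the only start of LRP5 (chr11:68312341-68312590, plus strand), the gene that was higher in shDEPDC1B, and that before the first start of APC (chr5:112707248-112707497, plus strand), a gene that was lower, hold none of the words. Capitals mark the word.
TCF7: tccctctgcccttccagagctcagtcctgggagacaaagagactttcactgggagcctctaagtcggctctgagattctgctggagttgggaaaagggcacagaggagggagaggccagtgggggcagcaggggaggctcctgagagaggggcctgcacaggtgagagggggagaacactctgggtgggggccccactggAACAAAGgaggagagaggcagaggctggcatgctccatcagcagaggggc
TCF7L2: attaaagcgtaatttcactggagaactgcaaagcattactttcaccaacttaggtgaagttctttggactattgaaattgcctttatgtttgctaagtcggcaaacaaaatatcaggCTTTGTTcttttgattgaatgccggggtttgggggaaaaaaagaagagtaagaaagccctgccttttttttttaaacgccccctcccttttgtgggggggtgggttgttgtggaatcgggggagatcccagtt
LRP5: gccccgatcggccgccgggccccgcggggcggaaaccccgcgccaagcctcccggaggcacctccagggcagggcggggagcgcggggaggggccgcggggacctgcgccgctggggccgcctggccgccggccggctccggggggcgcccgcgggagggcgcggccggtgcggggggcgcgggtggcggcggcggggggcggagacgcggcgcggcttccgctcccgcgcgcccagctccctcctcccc
APC: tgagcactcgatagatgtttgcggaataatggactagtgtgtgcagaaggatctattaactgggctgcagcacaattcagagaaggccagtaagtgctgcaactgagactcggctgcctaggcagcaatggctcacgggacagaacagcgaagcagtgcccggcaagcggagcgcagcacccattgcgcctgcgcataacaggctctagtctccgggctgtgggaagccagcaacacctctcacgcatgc
The LRP5 window has 87.2% G and C, the APC window 56.4%, the TCF7 window 62.0% and the TCF7L2 window 42.4%, against a median of 58.0% over all windows. A match is a description of the letters and no evidence of binding. The table gives 1 value per gene, so which start was used was not measured.

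Among the 10 genes, APC, TCF7, LRP6 and NKD1 were lower in shDEPDC1B and LRP5 was higher, whereas AXIN1 and GSK3B were at nearly the same level and LEF1 was not detected. A gene was called lower or higher at a ratio of at least 1.5 whose interval leaves out 1, with genes assessed only where their larger count was 30 or more. By this rule 4 of the 9 assessed genes were lower and 1 was higher, where 19.6% of all 13850 assessed genes were lower and 19.2% were higher. The median log2 ratio of the 9 genes was -0.55, and that of all assessed genes was 0.04. Scaled by library totals instead of by trimmed means, the split over all genes became 3207 lower and 2029 higher (2708 and 2662 as reported), and 5 of the 9 genes were lower. With a loess trend on transcript length subtracted, only 2 of the 9 genes, TCF7 and APC, were lower, and the median of the 9 was -0.17. Of all assessed genes of known length 14.95% were then lower. RNA per cell and the number of cells that hold it cannot be told apart in such bulk samples.

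**Figure D1:**
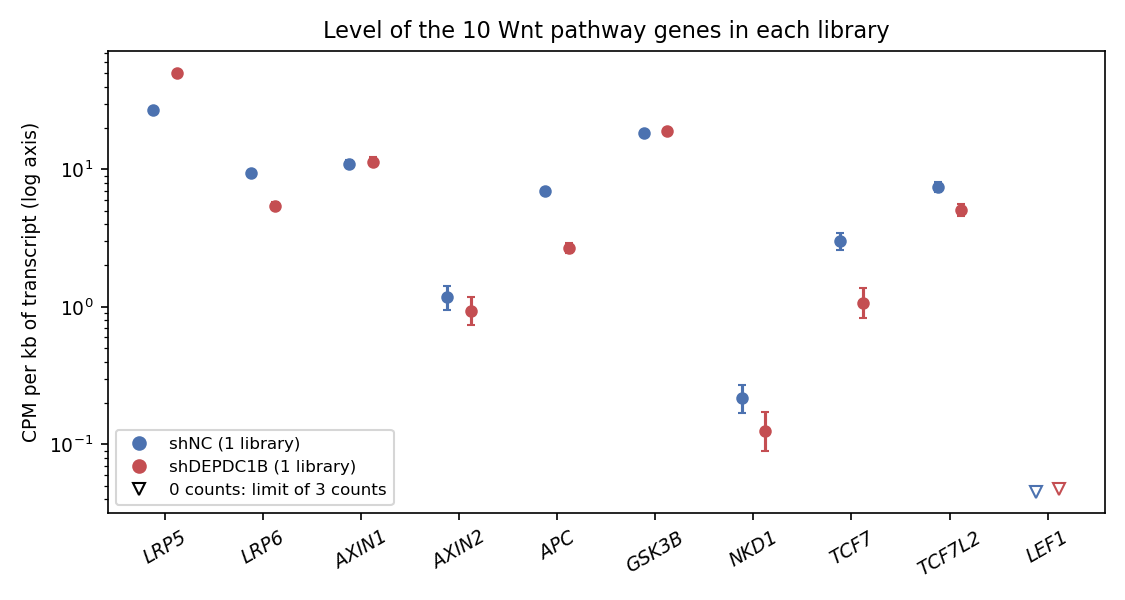
Level of each of the 10 genes in the 2 libraries, as CPM per kb of its longest coding transcript on a log axis, with bars for the 95% interval of counting error. The LRP5 points lie highest (26.9 in shNC and 49.8 in shDEPDC1B), NKD1 lowest among the detected genes, and LEF1, with 0 counts, is drawn as the limit that 3 counts would give.

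Levels were compared between genes as CPM (on library sizes scaled by trimmed means) per kb of the longest coding transcript. In shNC the order of these levels was LRP5 at 26.9, GSK3B at 18.4, AXIN1 at 10.9, LRP6 at 9.43, TCF7L2 at 7.41, APC at 6.93, TCF7 at 3.01, AXIN2 at 1.17 and NKD1 at 0.215. Of these neighbours only TCF7L2 and APC had overlapping intervals. On the deposited values the order in shDEPDC1B was the same, and there LRP6 (5.44) overlapped TCF7L2 (5.05) and TCF7 (1.07) overlapped AXIN2 (0.940). The place of LRP6 is uncertain, since its deposited counts may be a mean over 2 gene copies, as described below. With its counts times 2 its level is 18.9 in shNC, above GSK3B, and 10.9 in shDEPDC1B, below AXIN1 at 11.4. The order of the point values then differs between the libraries. These levels lie within the intervals of GSK3B in shNC [17.7, 19.1] and of AXIN1 in shDEPDC1B [10.6, 12.2], so neither place is resolved. The co-receptor LRP5 was at the top and the feedback inhibitors AXIN2 and NKD1 at the bottom either way. The NKD1 level rests on an annotated transcript of 17105 nucleotides, and a shorter transcript would raise it.

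Of the co-receptors, LRP5 (chromosome 11, 68312609 to 68449275, plus strand, in GENCODE 29 on GRCh38) had 2680 counts with shNC and 4685 with shDEPDC1B. These are 139 and 257 CPM, a log2 ratio of 0.89 [0.82, 0.96] or a 1.85-fold higher level. LRP6 (chromosome 12, 12116025 to 12267012, minus strand) had 1822 and 995 counts, or 94.5 and 54.5 CPM. Its log2 ratio was -0.79 [-0.91, -0.68], a 1.73-fold lower level, so the 2 genes differed in opposite directions. With the trend on transcript length subtracted LRP6 was at -0.17 and no longer called. LRP5 made up 59.5% [58.1, 61.0] of the counts of the pair in shNC and 82.5% [81.5, 83.5] in shDEPDC1B, a share that does not depend on library scaling. Divided by transcript length its share was 74.1% and 90.1%. Neither share takes out the trend on length between the libraries, after which LRP5 was at 1.12 and LRP6 at -0.17. The deposited LRP6 values become whole hundredths only when multiplied by 2, as a mean over 2 gene copies would. If they are such means, the LRP6 counts are 3645 and 1990 and the LRP5 share is 42.4% in shNC and 70.2% in shDEPDC1B.

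**Figure D2:**
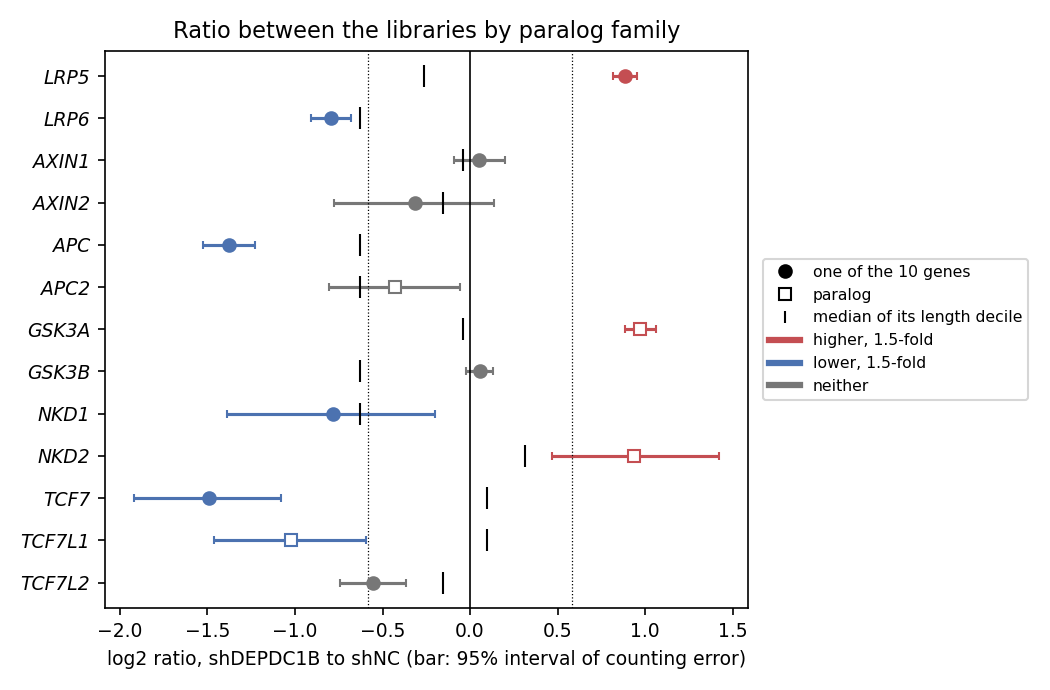
Log2 ratio of shDEPDC1B to shNC for the 9 assessed genes (filled circles) and their paralogs (open squares), with 95% intervals of counting error. Dotted lines mark 1.5-fold and black ticks the median log2 ratio of genes of like transcript length, from 0.31 (NKD2) to -0.63 (APC, APC2, LRP6, GSK3B and NKD1). LRP5, GSK3A and NKD2 lie to the right of 1.5-fold, whereas TCF7, TCF7L1, APC, LRP6 and NKD1 lie to the left of it.

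Of the scaffolds of the destruction complex, APC (chromosome 5, 112707498 to 112846239, plus strand) had 1430 counts with shNC and 521 with shDEPDC1B, or 74.2 and 28.6 CPM. Its log2 ratio was -1.38 [-1.52, -1.23], a 2.60-fold lower level. AXIN1 (chromosome 16, 287440 to 352673, minus strand), the axin that is present without signalling, had 769 and 755 counts, or 39.9 and 41.4 CPM. Its log2 ratio of 0.05 [-0.09, 0.20] held equality within counting error and left out a 1.5-fold difference in either direction. AXIN2 (chromosome 17, 65528563 to 65561647, minus strand), the axin that is itself a Wnt target, had only 96 and 73 counts, or 4.98 and 4.002 CPM. A difference in AXIN2 was not detectable at this depth (log2 ratio -0.32 [-0.78, 0.14]), and the interval reaches a 1.71-fold lower level. AXIN1 held 88.9% [86.6, 90.9] of axin counts in shNC and 91.2% [89.0, 93.03] in shDEPDC1B, shares whose intervals overlap.

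GSK3B (chromosome 3, 119821323 to 120094417, minus strand), a kinase of the complex, had 2734 and 2687 counts, or 142 and 147 CPM, a log2 ratio of 0.06 [-0.02, 0.13]. Its paralog GSK3A, which can act in the same complex, had 1543 and 2865 counts, or 80.0 and 157 CPM. GSK3A was higher, at 0.97 [0.88, 1.06], so its share of the counts of the 2 kinases was 36.1% [34.6, 37.5] in shNC and 51.6% [50.3, 52.9] in shDEPDC1B. Divided by transcript length GSK3A held the larger share in both libraries, 55.3% and 70.0%. That division does not take out the trend on length between the libraries. With that trend subtracted GSK3A was at 0.96 and GSK3B at 0.555, so their log2 ratios lay closer together. APC2, the paralog of APC, had 148 and 104 counts and, at -0.43 [-0.81, -0.06] on the log2 scale, did not reach 1.5-fold. With the trend on length subtracted APC2 was at 0.245, on the other side of equality, but with a linear fit on length and GC content subtracted it was at -0.281. APC held 90.6% [89.1, 92.0] of the counts of this pair in shNC and 83.4% [80.2, 86.2] in shDEPDC1B, and thus remained the main transcript of the pair in both libraries.

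NKD1 (chromosome 16, 50548330 to 50649249, plus strand), which binds Dishevelled and dampens the signal, had 71 and 39 counts, or 3.68 and 2.14 CPM. Its log2 ratio was -0.79 [-1.39, -0.20], so the fold of 1.72 lower has an interval from 1.15 to 2.62. NKD2, its paralog, had 59 and 107 counts and was higher, at 0.94 [0.47, 1.42]. NKD1 held 54.6% [45.7, 63.4] of the counts of the pair in shNC and 26.7% [19.7, 34.7] in shDEPDC1B. Divided by transcript length its share was 13.2% and 4.39%, so that NKD2 was then the larger in both libraries. The ratios of the 2 paralogs had opposite signs at these low counts, but with the trend on length subtracted NKD1 was at 0.00 and NKD2 at 0.63. With the linear fit on length and GC content subtracted NKD1 was at -0.13 and NKD2 at 0.41, short of 1.5-fold.

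TCF7 (chromosome 5, 134114711 to 134151865, plus strand), which encodes the factor TCF-1, had 193 counts with shNC and 65 with shDEPDC1B, or 10.0 and 3.56 CPM. At a log2 ratio of -1.49 [-1.92, -1.08], 2.81-fold lower, it was the lowest of the 9 assessed ratios, though its interval overlaps that of APC. The 3' neighbour SKP1 shares 210 exonic bases with TCF7 on the opposite strand, and whether strand was kept was not given in the sources used here. SKP1 was abundant (289 CPM in shNC and 399 CPM in shDEPDC1B) and differed in the other direction, at 0.47 [0.42, 0.52]. TCF7L2 (chromosome 10, 112950250 to 113167678, plus strand), which encodes TCF-4, had 591 and 381 counts, or 30.7 and 20.9 CPM, and its log2 ratio of -0.55 [-0.74, -0.37] stands just short of 1.5-fold. It passed that fold, at -0.65, when libraries were scaled by their totals, and at -0.61 with DESeq2 size factors and with the trend on mean expression subtracted. It moved away from that fold, to -0.46, with the trend on length subtracted, and to -0.38 with the linear fit on length and GC content. LEF1 (chromosome 4, 108047545 to 108168956, minus strand) had 0 counts in both libraries, where 3 counts would be 0.156 CPM in shNC and 0.164 CPM in shDEPDC1B.

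Within the family of TCF and LEF factors, TCF7L1, which encodes the mostly repressive TCF-3, was lower as well, with 144 and 67 counts and a log2 ratio of -1.02 [-1.46, -0.60]. The 4 genes together had 928 counts in shNC and 513 in shDEPDC1B. TCF7L2 supplied 63.7% [60.5, 66.8] of them in shNC and 74.3% [70.3, 78.0] in shDEPDC1B. The TCF7 share was 20.8% [18.2, 23.6] and 12.7% [9.92, 15.9], while the TCF7L1 share of 15.5% [13.2, 18.0] and 13.1% [10.3, 16.3] had overlapping intervals. TCF7L2 was thus the main transcript of the family in both libraries, and per kb of transcript it held 57.3% in shNC and 68.6% in shDEPDC1B.

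**Figure D3:**
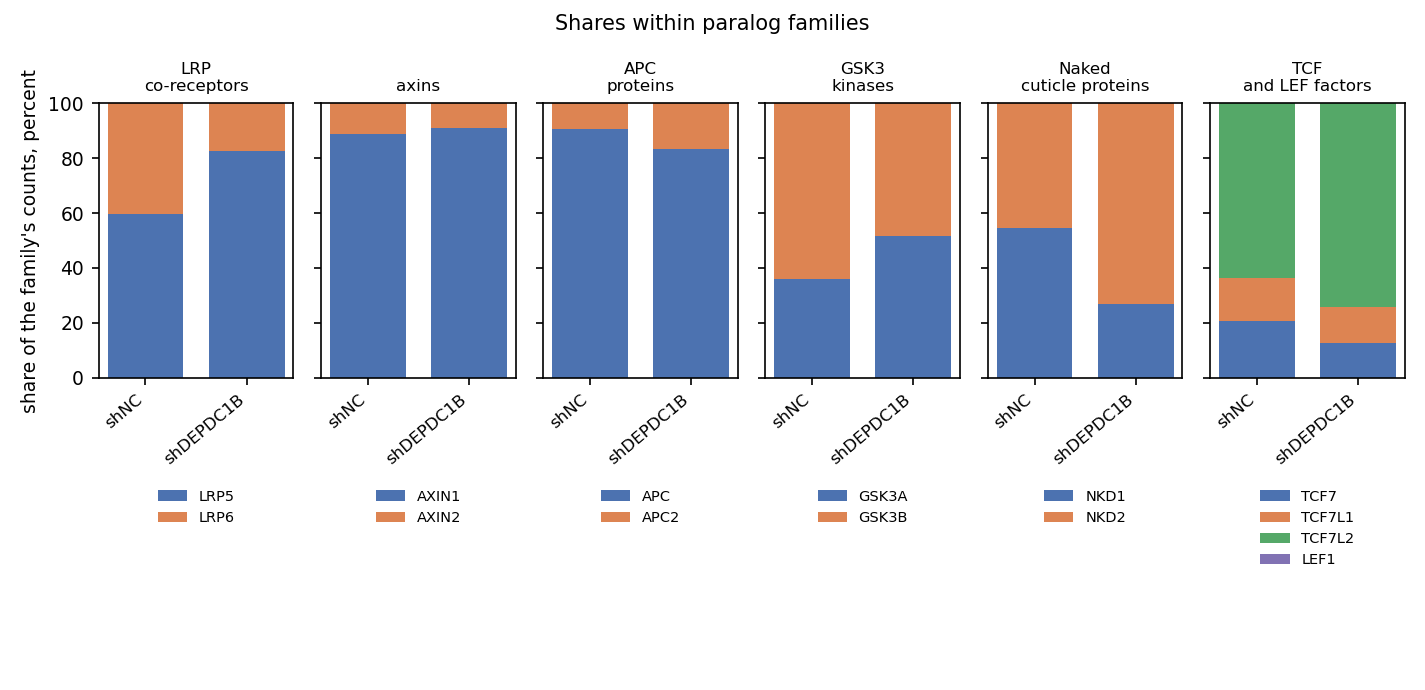
Share of the counts of each paralog family held by each gene, in percent, in shNC and shDEPDC1B (1 library each). The trend of the ratios on transcript length is not taken out of these shares. The LRP5, GSK3A and NKD2 parts are larger in shDEPDC1B, whereas AXIN1 and AXIN2 keep about the same parts, and LEF1 has no visible part because it had 0 counts.

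The log2 ratio in these libraries moved with transcript length, and the 10 genes are unequal in length. In the 10% of assessed protein-coding genes with the longest transcripts (7661 nucleotides and more) the median log2 ratio was -0.63 and 52.3% of genes were lower. APC (10701 nucleotides), LRP6 (10020), NKD1 (17105) and GSK3B (7711) belong there, so 3 of the 4 lower genes stand where about as many genes were lower as were not. With the trend on length subtracted, LRP6 was at -0.17 and NKD1 at 0.00, neither of which reaches 1.5-fold, while APC was at -0.73 and still did. GSK3B, at nearly equal level in both libraries, came to 0.56 against that trend. TCF7 has a shorter transcript of 3330 nucleotides, where the median log2 ratio was 0.09 and 11.98% of genes were lower, and it was at -1.54 after the subtraction. LRP5 (5159 nucleotides, median of like genes -0.26) came to 1.12. The part of transcript length in these differences was not tested.

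**Figure D4:**
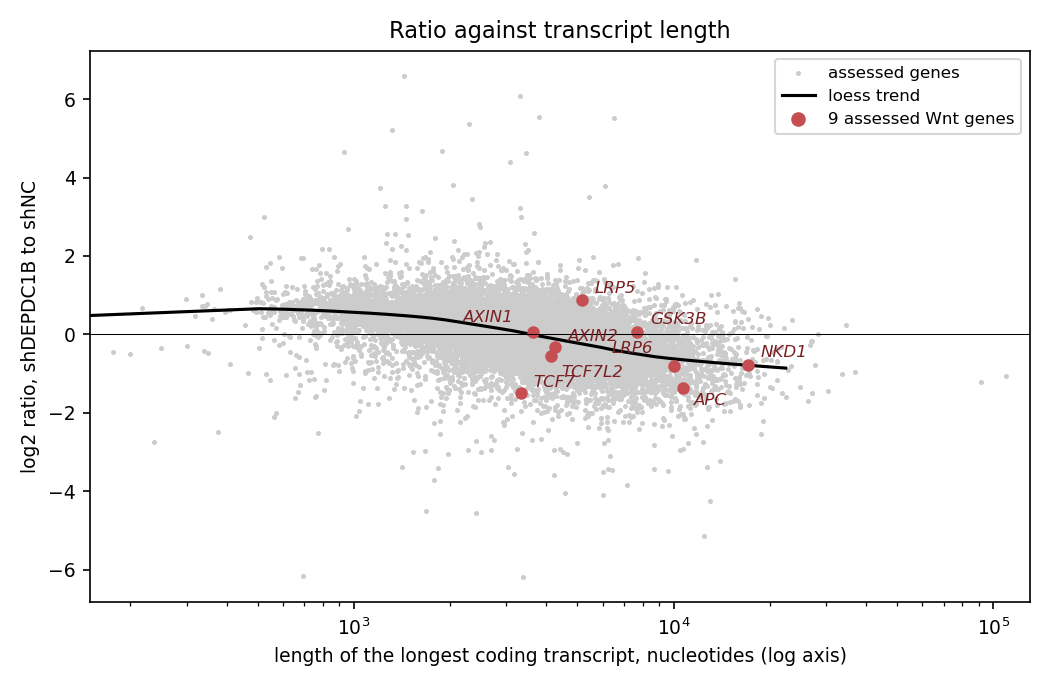
Log2 ratio of shDEPDC1B to shNC against the length of the longest coding transcript (log axis) for assessed genes (grey) with a loess trend (black line) and the 9 assessed Wnt genes (red). LRP6 and NKD1 lie near the trend, TCF7 and APC below it, and LRP5 and GSK3B above it.

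The wider pathway was read from lists that hold 144 genes with the 10 included, of which 104 were assessed. These lists too were chosen with earlier results of these data known. Of the 95 assessed genes outside the 10, 28 (29.5%) were lower and 9 (9.47%) were higher, against 19.6% and 19.2% of all assessed genes, with a median log2 ratio of -0.16. With the loess on transcript length subtracted, 14.95% of the 13013 assessed genes of known length were lower and 12.96% higher. The counts after that loess are to be read against these shares. The 29.5% and 9.47% are from before that subtraction, and shares of the 95 genes after it are not given here. Among 14 assessed receptors and co-receptors 3 were lower (LRP6, FZD4 at -1.01 and FZD6 at -0.63) and 2 higher (FZD2 at 1.14 [1.02, 1.26] and LRP5), with a median of -0.14. The lower share of 21.4% is near that of all genes. FZD2, a Frizzled receptor, had 826 counts in shNC and 1723 in shDEPDC1B. Of 7 assessed genes for Dishevelled proteins and their regulators 4 were lower, led by DVL2 at -1.09 [-1.30, -0.88], DVL3 at -0.67 and DIXDC1 at -0.61, and NKD2 was higher, for a median of -0.61. The third Dishevelled gene, DVL1, was at 0.16 [0.01, 0.30]. After the loess on length 1 receptor gene and 2 Dishevelled genes were lower.

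All 22 destruction complex genes were assessed, of which 8 (36.4%) were lower and 3 (13.6%) higher, against 19.6% and 19.2% of all assessed genes, with a median of -0.29. Lowest after APC by interval bound were the deubiquitinase USP34 (-1.18) and the tankyrase TNKS2 (-1.12), enzymes that act on axin turnover. The 3 higher genes were PPP2R1A, a scaffold subunit of protein phosphatase 2A, at 1.12 [1.07, 1.16], GSK3A, and the CK1 kinase CSNK1D at 0.65. After the loess on length 4 genes of this list were lower, USP34 (-0.52) no longer among them, where 14.95% of all genes of known length were. After the linear fit on length and GC content 3 were lower, where 13.46% of all genes of known length were. In the nuclear complex 7 (35.0%) of 20 assessed genes were lower and 1 (5.0%) higher, with a median of -0.08. After the loess on length 5 were lower and 2 higher. CHD8, a chromatin remodeller that binds beta-catenin, was at -1.38 [-1.48, -1.28] and the acetyltransferase EP300 at -1.20. The beta-catenin gene CTNNB1 was also lower, with 6819 and 4238 counts and a log2 ratio of -0.61 [-0.66, -0.55], and was not called after that loess (-0.42). CTNNBIP1, whose product keeps beta-catenin from TCF factors, was the higher gene, with 57 and 167 counts and a log2 ratio of 1.63 [1.19, 2.09].

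Wnt target genes showed few differences of that size: of 17 assessed, TCF7 and NKD1 were lower, BIRC5 was higher (0.95 [0.77, 1.13]), and the median was 0.09. BIRC5, the survivin gene, is also a mitotic gene. AXIN2 and the turnover ligases RNF43 (0.09 [-0.11, 0.28]) and ZNRF3 (-0.42 [-0.58, -0.26]), which are feedback targets in many tissues, did not reach 1.5-fold, nor did MYC (0.22) and CCND1 (0.24). LGR5, SP5 and LEF1, targets used as reporters of the pathway elsewhere, had 0 counts in both libraries. In such a list the lower share of 11.8% and the higher share of 5.88% stand below those of all assessed genes. After either fit on length 1 gene of the list was lower and 2 were higher.

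**Figure D5:**
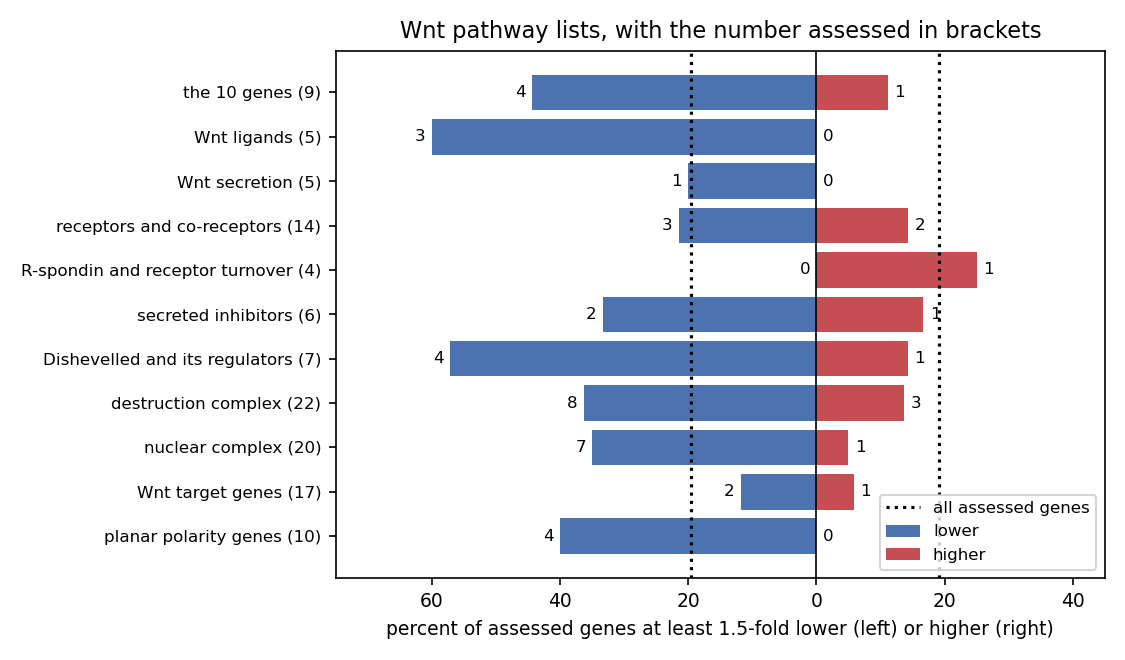
Percent of the assessed genes of each Wnt pathway list that were at least 1.5-fold lower (left, blue) or higher (right, red) in shDEPDC1B, with the number of genes at the end of each bar and dotted lines at the 19.6% and 19.2% of all assessed genes. On the left every list reaches the dotted line except R-spondin and receptor turnover (0 genes) and Wnt target genes, and on the right R-spondin and receptor turnover reaches beyond it with 1 of 4 genes.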

How the data were processed

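The authors deposited 1 table of estimated counts per gene symbol for the 2 libraries, made with Bowtie2 and RSEM on hg38 per the submitters' processing notes. Their versions and the annotation were not given in the sources used here. No depth scaling is in these deposited estimated counts, which were rounded to whole numbers before use. RSEM divides reads that match several genes by a model, an error that the intervals do not hold. Libraries were scaled by TMM with edgeR 4.0.16 in R 4.3.3 (factors 1.03 for shNC and 0.967 for shDEPDC1B). Ratios of scaled counts have exact Clopper-Pearson 95% intervals. No use of molecular identifiers is stated, so intervals and the limit of 3 counts for a count of 0 cover counting error only. No p-value was computed, since each group is 1 library. Transcript lengths are those of the longest coding transcript in GENCODE 29, known for 94.0% of assessed genes. The trend on log length was a loess with a span of 0.3 (statsmodels 0.14.6). Exons of 6 of the 10 genes overlap those of another annotated gene, of which SKP1 and LEF1-AS1 are in the table. The steps were tested on simulated counts with known folds. Those counts held counting error alone, few changed genes and no trend on length. They therefore do not test the steps under the conditions of these libraries. Named were the 10 genes, their paralogs, DEPDC1B, CTNNB1, and in each list up to 3 called genes per direction by interval bound. Other list members, SKP1 and the markers were named after their values were seen. The genes and lists were chosen with earlier results of these data known. Alternatives covered the scaling (DESeq2 1.42.0 among them), filters, folds, a prior count and fits on expression, length and GC content. Another, LRP6 counts times 2, was added after seeing the data.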

Additional observations from a re-analysis of the deposited data

How the results depend on the processing

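The number of the 9 genes called lower was 4, and it was 2 after the loess on length, 2 after the linear fit on length and GC content, and 2 at a fold of 2, where the number called higher was 0 instead of 1. The share of all 13850 assessed genes called lower was 19.6% as reported. Of the 13013 assessed genes of known transcript length it was 14.95% after the loess and 13.46% after the linear fit, so the gene sets differ. At a fold of 2, 8.975% of all assessed genes were lower and 5.863% higher. The median log2 ratio of the genes was -0.17 after either fit on length, against -0.55. After the loess on length NKD1 (0.003) and the paralog APC2 (0.245 against -0.43) changed sign. After the linear fit on length and GC content these 2 genes did not (NKD1 at -0.128 and APC2 at -0.281), whereas AXIN1 did (-0.169 against 0.053). Under other scalings, filters, folds and the prior count the number called lower stayed between 3 and 5. The filter of 100 counts left 7 genes, without AXIN2 and NKD1. Divided by transcript length, the share of LRP5 in its pair differed by 16.07 percentage points between the libraries (LRP6 by -16.07) and that of NKD2 by 8.78 (NKD1 by -8.78), since the longer paralog then weighs less. With the LRP6 counts times 2 the LRP5 share differed by 27.81 points (LRP6 by -27.81). No paired analysis was possible because each group has 1 library. Depth limits AXIN2, NKD1 and NKD2, with about 100 counts or fewer per library, and nothing can be said of LEF1 below the limit of 3 counts.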

Other observations

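Genes of the pathway outside the cell's own receiving machinery also had values in these libraries. Of 19 Wnt ligand genes 5 were assessed, 3 of them lower (WNT5A at -1.45 [-2.05, -0.87], WNT3 at -1.07 and WNT9A at -0.75) and none higher, where 19.6% of all assessed genes were lower and 19.2% higher. These counts rest on the filter of 30 counts: at a filter of 10 counts, or with none, 4 ligand genes were lower and 2 higher, and at 100 counts none was lower. The deposited WNT3 values become whole hundredths only when multiplied by 3, as a mean over 3 gene copies would. Whether WNT3 falls below the filter of 100 counts is therefore uncertain. WNT7B was by far the most counted ligand, with 4086 counts in shNC and 3217 in shDEPDC1B (-0.26 [-0.33, -0.20]), and WLS, which carries Wnt proteins to the surface, was lower at -0.64 [-1.12, -0.18]. RSPO3, a ligand that strengthens Wnt signalling, was higher at 0.75 [0.69, 0.82], with 2886 and 4604 counts, and with the loess on transcript length subtracted it was at 0.57, short of 1.5-fold. Its receptor LGR4 was at -0.48 [-0.54, -0.43], short of 1.5-fold. Of 6 assessed secreted inhibitors or inhibitor receptors, SFRP1 (1742 and 692 counts, -1.25 [-1.38, -1.12]) and KREMEN1 (-0.68) were lower and KREMEN2 (0.73, at 47 and 74 counts) was higher. After that loess KREMEN1 (-0.32) and KREMEN2 (0.47) were no longer called, and at a filter of 100 counts KREMEN2 was not assessed. DKK1, an inhibitor that binds LRP5 and LRP6, had 6721 and 9424 counts and stood just short of 1.5-fold at 0.57 [0.52, 0.61].

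Of 10 assessed planar polarity genes, which act in the branch of Wnt signalling without beta-catenin, 4 were lower and none higher, against 19.6% and 19.2% of all assessed genes. The lower genes were VANGL2 (-1.24 [-1.70, -0.79]), PRICKLE1 (-1.10), CELSR2 (-0.87) and DAAM1 (-0.77), and the median was -0.40. With the trend on transcript length subtracted that median was 0.01. Then 2 of the genes, VANGL2 (-0.98) and PRICKLE1 (-0.77), were still lower, where 14.95% of all genes of known length were.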
